A study of Mus musculus with 6 samples.

Results

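The T cell receptor genes were read as the rows of the count table whose annotated gene type begins with TR_, which covers variable (V), diversity (D), joining (J) and constant (C) segments and their pseudogenes. They made up 270 of the 55487 rows, and by gene symbol 191 belonged to the alpha locus, 53 to the beta locus, 15 to the gamma locus and 11 to the delta locus. The alpha rows include 10 V segments whose names mark them as shared with delta. By annotation 44 of the 270 were pseudogenes.

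The libraries hold messenger RNA of mouse acute lymphoblastic leukaemia cells, sorted from bone marrow as GFP+ B220+, and 3 came from cells lacking miR-182 (KO, replicates 2, 3 and 4) and 3 from wild type cells (WT, replicates 1, 3 and 4). Both genotypes were modelled by bone marrow transplantation into mice aged 6 to 8 weeks, with GFP followed in blood from 3 weeks on, and the samples carry the time label Day 0. Of the models in the series, that of B-ALL uses BCR-ABL (P190) and that of T-ALL uses Notch, and B220 is the gate of the B lineage, so that KO and WT share the BCR-ABL driver. The sorting text of every sample names 182WT/182NC, and nothing in the labels says whether a library is a separate mouse or transplant, so p-values measure the spread between these samples, which may be technical.

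Antigen receptor genes are assembled by V(D)J recombination, in which the RAG proteins join V, D and J segments upstream of a constant gene. Alpha and beta chains form the receptor of most T cells, gamma and delta chains that of a smaller lineage, and B cells use the immunoglobulin loci instead. The mouse gamma locus is built of cassettes, each with its own V segments, joining segment and constant gene, and unrearranged receptor loci can be transcribed before or without recombination as germline transcripts, which start near a joining segment and are spliced to the constant gene. Signalling through the interleukin-7 receptor and STAT5 is known to open the gamma locus in lymphoid precursors.

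Library totals lay between 20527487 and 29237035 counts in KO and between 17704382 and 23311040 counts in WT, so that 3 counts correspond to 0.103 to 0.169 counts scaled to a library total of 1e6 (CPM). Mir182 had 0 counts in the 3 KO libraries and in the 3 WT libraries, and an mRNA library does not read the mature microRNA, so the genotype was not checked by it. All 10 B-lineage markers listed were expressed, with sums of 6290 to 7220 CPM in KO and 6310 to 6820 CPM in WT. Levels are CPM on library sizes normalised by the trimmed mean of M values (TMM), and a fold change is the log2 ratio of KO over WT, with its standard error (SE), from the edgeR quasi-likelihood test, with p-values adjusted by Benjamini-Hochberg over all 14481 genes tested and a threshold of 0.05. Testing required at least 0.456 CPM in 3 libraries and a total of 15 counts.

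Most T cell receptor rows had no counts in these leukaemias, and nearly all the counts there were fell on the gamma constant genes. Of the 270 rows 165 had 0 counts in all 6 libraries, a further 48 had a total of 1 count, and 17 reached a total of 10. Of 27932 counts on the receptor rows, 97.5% fell on the gamma locus and 92.6% on Trgc1 and Trgc2 alone. Of the 44 pseudogene rows 7 had a count.

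The gamma locus took 98.5%, 98.5% and 98.2% of the receptor counts in KO replicates 2, 3 and 4, and 85.3%, 99.3% and 97.8% in WT replicates 1, 3 and 4. WT replicate 1 stood below the other 5 libraries, and it held the highest shares of the other loci. There the beta locus took 8.61% (95% exact Clopper-Pearson interval 7.55 to 9.76), the alpha locus 4.19% (3.44 to 5.04) and the delta locus 1.92% (1.42 to 2.53), where the other 5 libraries had at most 1.46% for beta.

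Summed over its 15 rows, the gamma locus stood at 116, 108 and 100 CPM in KO replicates 2, 3 and 4, against 132, 535 and 249 CPM in WT replicates 1, 3 and 4. The KO libraries lay close together and below every WT library, while the WT libraries differed severalfold among themselves. The log2 ratio of the means was -1.50, and -0.82 without WT replicate 3. In a bulk library fewer cells of a type and less RNA per cell cannot be told apart.

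Of the 8 receptor rows that could be tested 6 were called lower in KO and 0 higher, where 28.5% of all tested genes were called lower and 23.9% higher. The same 6 had every KO library below every WT library, which held for 33.2% of all tested genes, and 0 lay above, which held for 30.8%. The median log2 fold change of the 8 was -3.06, against 0.00 over all genes tested. Trbc2, Trac, Trgc3 and Trgj2 passed the expression filter in no KO library, so these rows were tested through their WT level and had to differ. Trbc1 passed it in 1 of 3 KO libraries and in 3 WT libraries. Its WT level alone was enough for testing, though its difference was not fixed. The number of rows called is a description. Without WT replicate 3, Trgc1 was called as higher in KO (0.85, adjusted p = 0.0201, with 0.0201 to 0.892 over all alternatives).

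**Figure D1:**
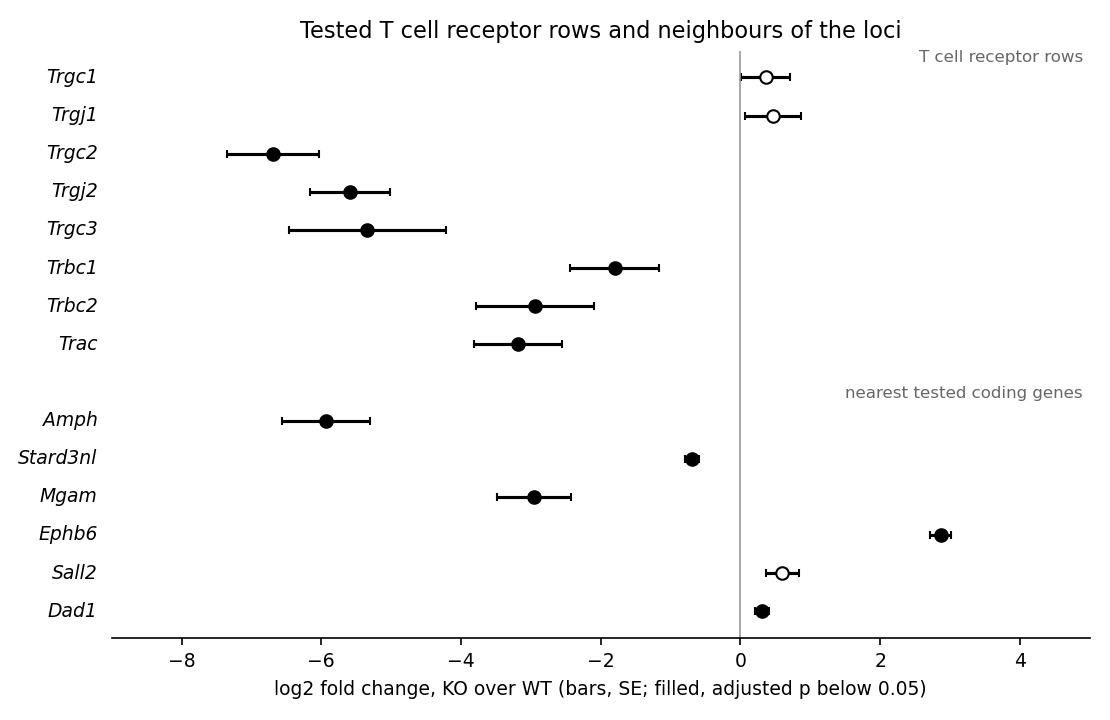
Log2 fold change KO over WT (x axis; bars, SE) for the 8 tested T cell receptor rows and for the nearest tested protein-coding gene on each side of the loci. Filled points have an edgeR adjusted p below 0.05; Trgc1 and Trgj1 lie just above 0, and the other 6 receptor rows lie between -6.69 and -1.80.

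The constant genes of the gamma locus did not move together. Trgc2 and Trgc3 were lower in KO and Trgc1 did not pass the test. The joining segments in front of Trgc2 and Trgc1, Trgj2 and Trgj1, showed the same division. The gamma locus lies on chromosome 13 from 19178024 to 19352756 (GRCm38), and from its first constant gene on, Trgc3 begins 46.78 kb, Trgc2 90.55 kb and Trgc4 130.46 kb further along. Trgc2, Trgj2 and Trgv2 are on the minus strand and the other 12 gamma rows are on the plus strand.

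The cassettes are close copies, so which letters tell them apart bears on every count given for them. The joining segments below come from GENCODE transcripts on GRCm38 and are written 5′ to 3′, with capitals where the 3 are not all the same. They lie at chr13:19210343-19210402 (plus strand) for Trgj1, chr13:19311245-19311304 (minus strand) for Trgj2 and chr13:19257117-19257176 (plus strand) for Trgj3.
Trgj1: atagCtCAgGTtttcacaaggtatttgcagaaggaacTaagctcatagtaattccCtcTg
Trgj2: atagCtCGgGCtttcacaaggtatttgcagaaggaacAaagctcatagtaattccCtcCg
Trgj3: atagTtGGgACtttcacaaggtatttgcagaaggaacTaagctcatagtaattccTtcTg
Trgj1 and Trgj2 share 93.3% of their 60 bases and differ by A8G, T11C, T38A and T59C, with the Trgj1 base first and positions counted from 1 at the 5′ end of the segment.

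The first constant exon, of 330 bases, is 97.3% identical between Trgc1 and Trgc2 with 9 mismatches, 96.1% between Trgc1 and Trgc3 with 13, and 96.7% between Trgc2 and Trgc3 with 11. Trgc4 stands apart, at 81.2% to 82.1% identity with the other 3. The 60 bases of that exon from chr13:19214242-19214301 (Trgc1, plus strand), chr13:19307353-19307412 (Trgc2, minus strand) and chr13:19261024-19261083 (Trgc3, plus strand) show how sparse the differences are, with capitals at positions where the 3 are not all the same.
Trgc1: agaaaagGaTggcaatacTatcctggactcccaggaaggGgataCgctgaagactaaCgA
Trgc2: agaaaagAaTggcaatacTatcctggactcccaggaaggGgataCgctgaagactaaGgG
Trgc3: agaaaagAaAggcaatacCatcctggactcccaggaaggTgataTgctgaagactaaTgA
In this stretch Trgc1 and Trgc2 differ by G8A, C58G and A60G, with the Trgc1 base first and positions counted from 1 at the 5′ end of the stretch.

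The second constant exon differs in length, with 45 bases in Trgc1, 30 in Trgc2 and 44 in Trgc3, at chr13:19215864-19215908, chr13:19305769-19305798 and chr13:19262644-19262687. It is shown whole, in lower case throughout, because of this difference in length.
Trgc1: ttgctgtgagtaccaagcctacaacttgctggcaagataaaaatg
Trgc2: ttgctacaacttgctggcaagataaaaatg
Trgc3: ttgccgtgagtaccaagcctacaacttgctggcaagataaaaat
Over whole transcripts, 29.6% of the 50-base windows of Trgc1, 25.4% of those of Trgc2 and 36.2% of those of Trgc3 occur in another receptor constant gene, and 0% of those of Trgc4. How reads that match several copies were counted is not given in the sources used here, so the division among Trgc1, Trgc2 and Trgc3 carries that uncertainty in every library.

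Trgc1, the constant gene of the first cassette (ENSMUSG00000076749, chr13:19214103-19217024), had 2294, 2866 and 2896 counts in KO replicates 2, 3 and 4, against 667, 2824 and 1277 counts in WT replicates 1, 3 and 4. That is 110, 102 and 94.5 CPM in KO and 40.5, 124 and 73.0 CPM in WT. WT replicate 3 was the highest of the 6 and WT replicate 1 the lowest, so that the groups overlapped. The fold change was 0.36 (SE 0.35, adjusted p = 0.417), and it lay between 0.04 without WT replicate 1 and 0.85 without WT replicate 3.

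Trgc2, the constant gene of the inverted cassette (ENSMUSG00000076752, chr13:19304649-19307551), had 51, 62 and 46 counts in KO replicates 2, 3 and 4, against 1368, 8637 and 2866 counts in WT replicates 1, 3 and 4. That is 2.44, 2.20 and 1.50 CPM in KO and 83.0, 380 and 164 CPM in WT. The groups were far apart, and WT replicate 3 stood above the other WT libraries. Trgc2 fell in KO by 6.69 on the log2 scale (SE 0.66, adjusted p = 0.00044), and its fold change without WT replicate 3 was -5.93.

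Trgc3, the constant gene of the third cassette (ENSMUSG00000091682), had 3, 7 and 3 counts in KO, against 28, 366 and 40 counts in WT. WT replicate 3 was again far above the others, and no KO library reached a WT library. Its fold change was -5.34 (SE 1.12, adjusted p = 0.00709), and -3.56 without WT replicate 3 (adjusted p = 0.000727, with 6.8e-09 to 0.0323 over all alternatives). Within each library Trgc3 had 0.0588, 0.113 and 0.0652 counts per count of Trgc2 in KO, and 0.0205, 0.0424 and 0.0140 in WT.

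Trgc4 (ENSMUSG00000076757), whose first exon is the least alike in sequence to those of the other 3, had 1 count in each KO library, against 18, 19 and 4 counts in WT replicates 1, 3 and 4. It was too low to test with all 6 libraries. When any 1 KO library or WT replicate 4 was left out it was tested, through its WT level alone, and so had to differ. It was called lower there (-4.49 to -3.93, largest adjusted p = 0.0218), which is a description. The ratio of the group counts, KO over WT on normalised library sizes, was 0.052 with a 95% counting interval of 0.0103 to 0.163. Unlike Trgc2 and Trgc3, Trgc4 was at much the same count in WT replicates 1 and 3.

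The joining segments of Trgc1 and Trgc2, counted as rows of their own, showed the same division. Trgj1 (ENSMUSG00000104962) had 67, 106 and 116 counts in KO, against 17, 69 and 64 in WT, with a fold change of 0.47 (SE 0.40, adjusted p = 0.353). On the CPM scale KO lay between 3.20 and 3.79 and WT between 1.03 and 3.66, so the groups overlapped. Trgj2 (ENSMUSG00000105830) had 3, 5 and 1 counts in KO, against 54, 192 and 93 in WT, without overlap, and it fell in KO by 5.59 on the log2 scale (SE 0.57, adjusted p = 0.000493). Trgj3 had 1 count in KO replicate 2 and 1 in WT replicate 1, and Trgj4 had 0 in all 6 libraries. Trgj3 thus did not show the division of Trgc3, and in WT replicate 3, where Trgc3 had 366 counts, it had 0.

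Relative to the other gamma constant genes of the same library, Trgc2 took 2.17% (1.62 to 2.84), 2.11% (1.62 to 2.70) and 1.56% (1.15 to 2.08) of the counts in KO replicates 2, 3 and 4, against 65.7% (63.7 to 67.8), 72.9% (72.1 to 73.7) and 68.4% (67.0 to 69.9) in WT replicates 1, 3 and 4, with 95% exact Clopper-Pearson intervals that cover counting error only. Trgc1 took 97.7%, 97.6% and 98.3% in KO, against 32.1%, 23.8% and 30.5% in WT. The shares were tight within each genotype even though the WT libraries differed several times over in the level of Trgc2. Of the joining counts, Trgj2 took 4.23%, 4.50% and 0.855% in KO, against 75.0%, 73.6% and 59.2% in WT.

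**Figure D2:**
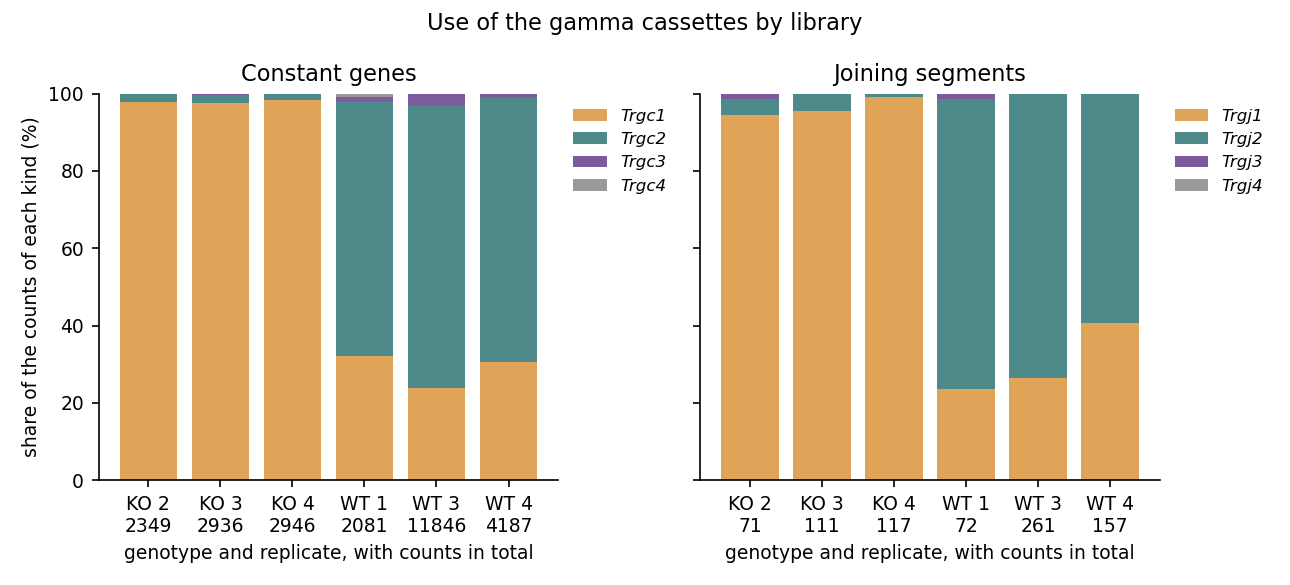
Share of the gamma constant counts (left) and gamma joining counts (right) taken by each gene, in %, for the KO and then the WT libraries, with the number of counts under each bar. Trgc1 and Trgj1 fill between 94.4% and 99.1% of the KO bars, while Trgc2 and Trgj2 take between 59.2% and 75.0% of the WT bars.

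Counted against Trgc1, Trgc2 had 0.0222, 0.0216 and 0.0159 counts per count in KO, and 2.05, 3.06 and 2.24 in WT. Against Trgj1, Trgj2 had 0.0448, 0.0472 and 0.00862 counts per count in KO, and 3.18, 2.78 and 1.45 in WT. Added over the 4 constant genes, which does not depend on how reads were divided among the copies, though it would on any reads left out for matching several, gamma had 2349, 2936 and 2946 counts in KO and 2081, 11846 and 4187 counts in WT, and this summed row had a fold change of -1.51 (SE 0.46). For both ratios every KO library lay below every WT library. A two-sided exact permutation test of 3 against 3 libraries cannot go below p = 0.1, so these ratios are given without a test.

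Per kilobase of exon, Trgc1 led the constant genes in KO, with 110 ± 8.15 CPM per kb (SD, n = 3), followed by Trgc2 at 2.24 ± 0.532, Trbc1 at 0.526 ± 0.164, Trbc2 at 0.481 ± 0.197, Trac at 0.262 ± 0.0517, Trgc3 at 0.252 ± 0.119, Trgc4 at 0.0392 ± 0.00816 and Trdc at 0.0141 ± 0.00919. In WT the order opened with Trgc2 at 229 ± 168 CPM per kb, then Trgc1 at 85.8 ± 45.8, Trgc3 at 10.3 ± 12.6, Trbc2 at 3.77 ± 4.04, Trac at 2.51 ± 1.95, Trbc1 at 1.94 ± 1.63, Trgc4 at 0.73 ± 0.451 and Trdc at 0.206 ± 0.325. In KO the libraries of Trgc1 lay above those of Trgc2 and these above all the rest, while Trbc1 and Trbc2, Trbc2 and Trac, and Trac and Trgc3 overlapped. In WT the libraries of Trgc1 lay above those of Trgc3, and every other pair of neighbours in that order overlapped.

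**Figure D3:**
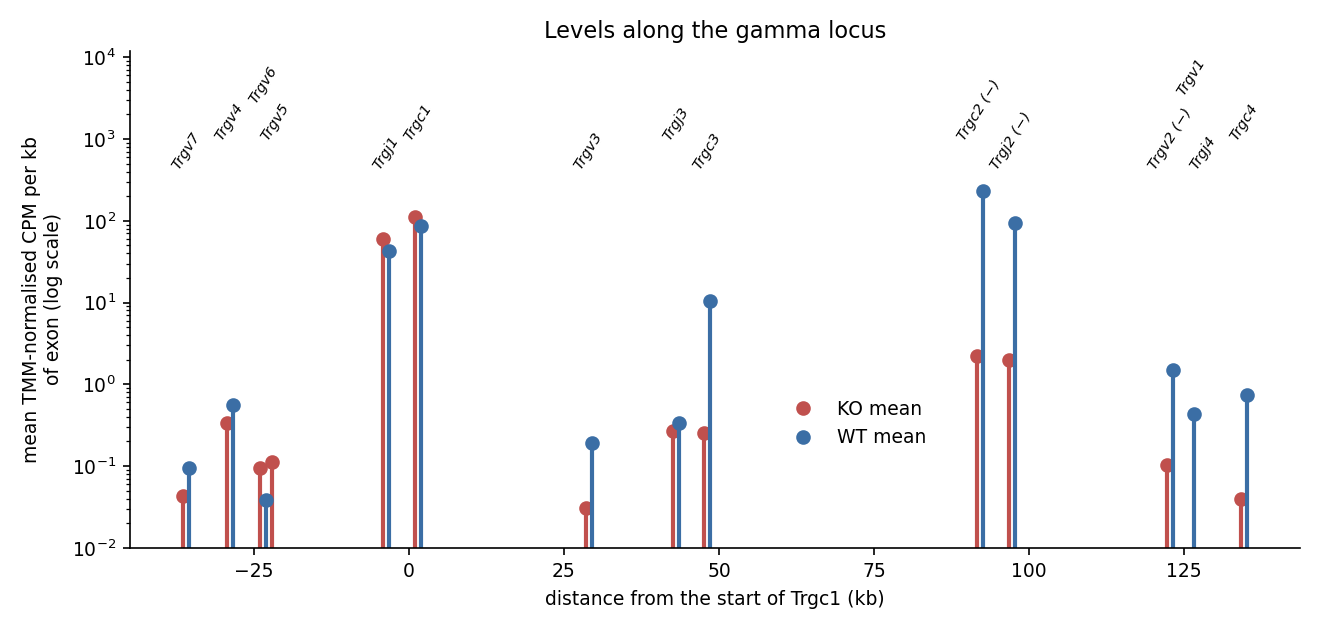
Mean TMM-normalised CPM per kb of exon (y axis, log scale) of the gamma rows against their distance from the start of Trgc1 in kb, with the KO mean to the left of the WT mean and minus-strand rows marked. A mean of 0 has no point; Trgc2 and its joining segment stand at 2.24 and 1.96 in KO and at 229 and 94.7 in WT, whereas Trgc1 stands at 110 in KO and 85.8 in WT.

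The V segments of the gamma locus had far fewer counts than its constant genes, with sums of 7, 11 and 5 counts in KO and 27, 34 and 11 counts in WT over 7 rows. Per kilobase of exon, the 4 V rows of the first cassette together had 0.155 CPM in KO and 0.191 in WT, below Trgj1 at 59.7 in KO and 42.9 in WT. Trgv2, the V segment of the inverted cassette (ENSMUSG00000076754), had 1, 2 and 1 counts in KO and 11, 26 and 7 counts in WT, with no overlap. Like Trgc4 it was tested, through its WT level alone, when any 1 KO library or WT replicate 4 was left out. It was called lower there (-4.07 to -3.48, largest adjusted p = 0.0131), again as a description. Per kilobase it had 0.103 CPM in KO and 1.50 CPM in WT, below the 1.96 and 94.7 of Trgj2.

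Trgv2 was too low for the expression filter and was tested in the fit of every row with a count, where 15.6% of 26311 genes were called lower and 14.1% higher. There Trgv2 fell by 3.71 on the log2 scale (adjusted p = 0.000471) and Trgc4 by 4.01 (adjusted p = 0.000713), and 10 of the 105 receptor rows with a count were called lower and 0 higher. Trgv4, the most counted V segment of the first cassette, had 4, 5 and 2 counts in KO and 7, 4 and 2 counts in WT, which overlap. An antisense transcript, Gm31887 with 14 counts in all, overlaps Trgv4, Trgv5, Trgv6 and Trgv7, and without a stated strand rule reads of either cannot be told apart.

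The other gamma V segments were at the edge of detection. Trgv1, of the Trgc4 cassette, had 0 counts in KO and 8 in WT, all in WT replicate 1. WT replicates 3 and 4 were at 0 counts like the KO libraries. In the edgeR fit of every row with a count Trgv1 was not called (adjusted p = 0.111). Trgv5 had 1 count in each KO library and 0 in WT, Trgv6 had 3 counts in KO replicate 3 and 1 in WT replicate 3, Trgv7 had 1 count in KO and 2 in WT, and Trgv3 had 1 count in KO and 4 in WT.

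The constant genes of the alpha and beta chains were lower in KO, at levels per kilobase far under those of Trgc1. Trac, the single alpha constant gene (ENSMUSG00000076928, chr14:54220521-54224206), had 4, 8 and 8 counts in KO replicates 2, 3 and 4, against 73, 23 and 28 counts in WT replicates 1, 3 and 4. No KO library reached a WT library, and WT replicate 1 was the highest. Trac stood at 0.245 ± 0.0484 CPM in KO and 2.35 ± 1.83 CPM in WT (SD, n = 3 each), a fold change of -3.19 (SE 0.63, adjusted p = 0.00577). Without WT replicate 1 it was -2.35.

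Trbc1 and Trbc2, the beta constant genes, lie on chromosome 6 in tandem and share 99.7% of their first exon, with 1 mismatch in 375 bases, so their counts may be exchanged. Trbc2 (ENSMUSG00000076498) had 9, 5 and 12 counts in KO, against 96, 18 and 21 in WT, with a fold change of -2.94 (SE 0.85, adjusted p = 0.024). Trbc1 (ENSMUSG00000076490) had 6, 10 and 16 counts in KO, against 46, 12 and 17 in WT, with a fold change of -1.80 (SE 0.64, adjusted p = 0.0491). In CPM the KO libraries lay below the WT libraries for both, by little in the case of Trbc1 at 0.522 CPM in KO replicate 4 and 0.528 CPM in WT replicate 3.

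The call of Trbc1 did not survive without WT replicate 1 (-0.88, adjusted p = 0.132), WT replicate 4 (0.0668), KO replicate 2 (0.128), KO replicate 3 (0.129) or KO replicate 4 (0.0787), and its adjusted p ran from 0.0108 to 0.167 over the alternatives. Trbc2 was not called when any 1 KO library was left out, at adjusted p = 0.0563 without replicate 2, 0.0828 without replicate 3 and 0.0613 without replicate 4, and over the alternatives its adjusted p lay between 0.00105 and 0.0828. Without WT replicate 1 its fold change was -1.57 (0.0241). Trbc2 took 60.0%, 33.3% and 42.9% of the beta constant counts in KO and 67.6%, 60.0% and 55.3% in WT, on 15, 15 and 28 counts in KO and 142, 30 and 38 in WT.

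Trdc, the delta constant gene (ENSMUSG00000104876, chr14:54142851-54148868), had 2, 1 and 1 counts in KO, against 37, 2 and 1 counts in WT, so nearly all of its counts came from WT replicate 1 and the groups overlapped. The ratio KO over WT was 0.071 with a counting interval of 0.0185 to 0.197, and WT replicates 3 and 4 together had 3 of the 40 WT counts. Trdc overlaps Trdv5 on the opposite strand, which had 5 counts, also in WT replicate 1. WT replicates 3 and 4 had more Trgc2 than WT replicate 1, and far fewer Trdc counts.

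**Figure D4:**
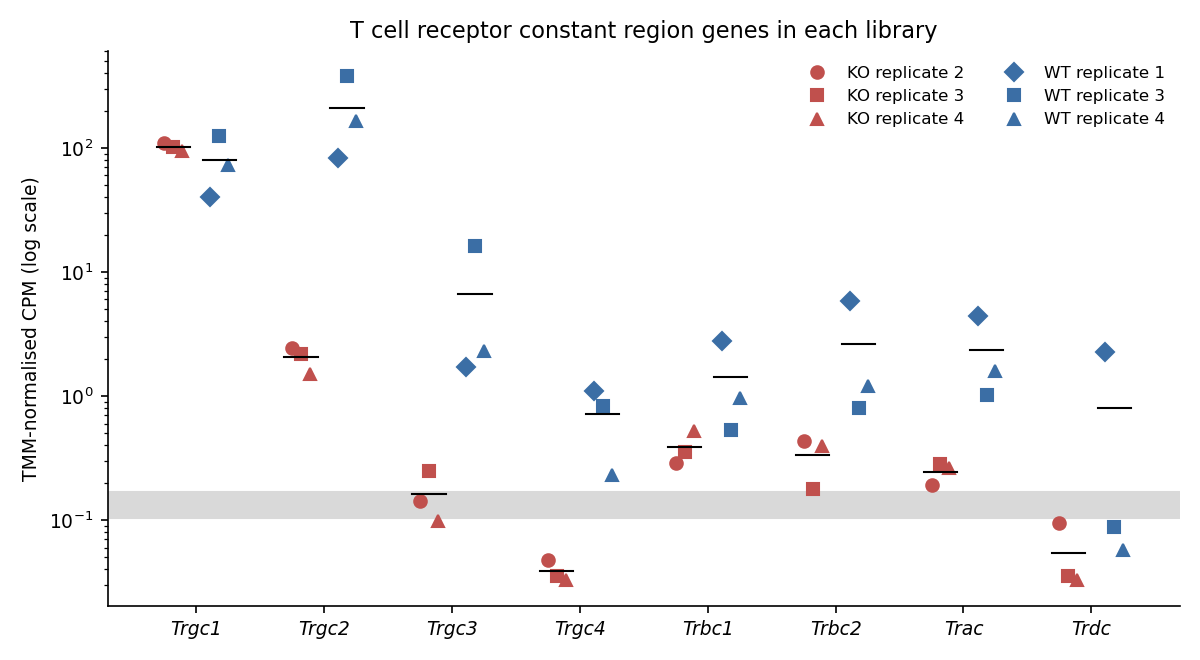
TMM-normalised CPM (y axis, log scale) of the 8 T cell receptor constant genes in each library, KO left of WT, with a bar at each group mean. The grey band marks the CPM of 3 counts, 0.103 to 0.169 over the libraries; Trgc1 overlaps between genotypes, Trgc2 does not, and WT replicate 1 is the highest point of Trac, Trbc1, Trbc2 and Trdc.

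Beyond the constant genes, the alpha, beta and delta loci showed scattered single counts. The 130 alpha V rows had 3, 3 and 3 counts in all in KO and 25, 9 and 2 counts in WT, and the 60 alpha J rows had 1, 4 and 3 counts in KO and 9, 4 and 0 counts in WT. Trav13-4-dv7 and Trav16 tied as the leading alpha V row with a total of 4 counts each, and Traj2 and Traj7 as the leading J row with a total of 2 each. All counts of Trav16 and Traj7 were in WT replicate 1. The 35 beta V rows had 8, 12 and 12 counts in KO and 64, 12 and 25 counts in WT.

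Among beta V segments, Trbv1, the most counted, had 0, 0 and 4 counts in KO and 6, 2 and 6 counts in WT. Trbv3, named after its values were seen, had 0 counts in all 3 KO libraries and 10, 2 and 2 counts in WT, which makes it at least 6.57-fold lower in KO against a floor of 3 counts over the group. Trbd1 had 0 counts in KO and 2 in WT, and Trbj1-5 had 1 in KO and 3 in WT. Trbj1-5 tied with Trbj1-1, Trbj1-2 and Trbj1-4 as the most counted beta joining segment. Of the delta segments, Trdv4 led with 1, 1 and 0 counts in KO and 4, 0 and 3 in WT, Trdj1 had 1 count in KO replicate 3 and 0 elsewhere, and the delta D rows had 0 counts throughout.

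The segment with the most V counts in a library was Trgv4 in KO replicates 2 and 3, with 4 and 5 counts, and Trbv1 in KO replicate 4, with 4 counts. In all 3 WT libraries it was Trgv2, with 11, 26 and 7 counts. V rows held 19, 27 and 20 counts in KO and 128, 56 and 41 counts in WT, where constant rows held 2370, 2960 and 2983 counts in KO and 2333, 11901 and 4254 counts in WT. V, J and constant rows differ in length, and these sums are not scaled for it.

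Receptor rows with a count numbered 31, 34 and 30 in KO replicates 2, 3 and 4, and 70, 41 and 30 in WT replicates 1, 3 and 4. Thinned to the smallest library total, 17704382 counts, the numbers expected were 28.1, 26.6 and 21.7 in KO and 70.0, 35.2 and 29.9 in WT. WT replicate 1, the shallowest library, had the most rows, with 29 alpha rows, where the other libraries had 3 to 14. Over the groups, 39 rows had a count in both genotypes, 18 in KO alone and 48 in WT alone. Alpha rows made up 11 of the 18 and 33 of the 48, and 191 of all 270 receptor rows. This split was not counted over all genes, and the WT side includes WT replicate 1 with its 70 rows, so it is a description and no result about the receptor rows.

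Summed over the locus, alpha stood at 0.382, 0.532 and 0.457 CPM in KO and 6.50, 1.59 and 1.71 CPM in WT, beta at 1.24, 1.03 and 1.37 CPM in KO and 13.4, 2.11 and 3.72 CPM in WT, and delta at 0.143, 0.106 and 0.0326 CPM in KO and 2.97, 0.132 and 0.229 CPM in WT. In each of them WT replicate 1 was highest, unlike gamma, where WT replicate 3 was. The log2 ratios of the means were -2.84 for alpha, -2.40 for beta and -3.56 for delta, and without WT replicate 1 they were -1.85, -1.26 and -0.94. Alpha and beta did not overlap between genotypes, whereas delta in WT replicate 3 lay below KO replicate 2.

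The genes around the gamma locus were also lower in KO. Amph, the endocytic protein amphiphysin, begins the tested genes on the lower side, 27.1 kb from Trgv7, and had 1, 1 and 7 counts in KO, against 79, 255 and 92 counts in WT. WT replicate 3 was the highest, as for Trgc2, and the groups did not overlap. Its fold change was -5.93 (SE 0.63, adjusted p = 0.000559), and -7.23 without KO replicate 4. Amph passed the expression filter in 0 KO libraries and so was tested through its WT level. Stard3nl, which takes part in contacts between endosomes and the endoplasmic reticulum, lies 4.92 kb beyond Trgc4 and stood at 14.2 ± 0.989 CPM in KO and 22.9 ± 1.48 CPM in WT (SD, n = 3 each), a fold change of -0.69 (SE 0.10, adjusted p = 0.002).

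The neighbours of the other loci moved both ways. Beside the beta locus, Mgam, a maltase-glucoamylase 122 kb below it, had 60, 163 and 384 counts in KO, against 1331, 801 and 878 counts in WT, with a fold change of -2.95 (SE 0.53, adjusted p = 0.00415), and -3.62 without KO replicate 4. Ephb6, an ephrin receptor 47.0 kb above it, had 220, 322 and 358 counts in KO, against 25, 32 and 29 counts in WT, and rose in KO by 2.87 (SE 0.15, adjusted p = 2.98e-05). Trbc2 and Ephb6, both at the upper end of the locus, were called in opposite directions. Trbc2, over the filter in 0 KO libraries, was tested through its WT level and had to differ. Its call was also lost when any 1 KO library was left out, so the contrast is a description.

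Beside the joint alpha and delta locus, Dad1, a subunit of the oligosaccharyltransferase 11.3 kb beyond Trac, stood at 61.7 ± 2.66 CPM in KO and 49.9 ± 6.49 CPM in WT, a fold change of 0.31 (SE 0.10, adjusted p = 0.0431) that was not called without any 1 of the libraries except WT replicate 3 (adjusted p between 0.00386 and 0.146 over all alternatives). Sall2, a zinc finger factor 99.2 kb below the locus, did not pass at 0.60 (SE 0.24, adjusted p = 0.074).

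Partners of the receptor on the T cell surface also had few counts. Of the 6 genes of the receptor complex 1 could be tested, Cd3d. It passed the filter in 0 KO libraries and 3 WT libraries, so it was tested through its WT level and had to differ. Its level was 0.143, 0.213 and 0.294 CPM in KO and 4.67, 0.661 and 1.03 CPM in WT (-3.19, SE 0.85, adjusted p = 0.0174). Without KO replicate 2 (adjusted p = 0.0553) or KO replicate 3 (0.0596) Cd3d was not called, and over all alternatives its adjusted p ran between 0.000481 and 0.0596. Without WT replicate 1 its fold change was -1.87 (0.0112). The list summed to 0.86, 0.745 and 1.27 CPM in KO and 17.4, 1.76 and 4.23 CPM in WT, with WT replicate 1 far above the rest.

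The other CD3 chains had few counts, with 5, 7 and 12 counts of Cd3g in KO and 94, 10 and 19 in WT, and 7, 3 and 5 counts of Cd3e in KO and 56, 6 and 17 in WT. The signalling chain Cd247 had 3, 3 and 10 counts in KO and 44, 9 and 16 in WT. Ptcra, the partner of the beta chain in thymocytes, had 0, 1 and 2 counts in KO and 1, 0 and 0 in WT. Each of these but Ptcra was highest in WT replicate 1, the library that also led Trac, Trbc1, Trbc2 and Trdc.

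Of 8 coreceptor and costimulatory genes 7 were tested, and 4 were lower in KO and 0 higher, with a median of -2.16, where 28.5% of all tested genes were lower and 23.9% higher. Cd4 had 16, 11 and 17 counts in KO and 107, 32 and 31 in WT (-2.50, adjusted p = 0.0169), Cd8a had 11, 16 and 23 in KO and 100, 17 and 30 in WT (-2.16, adjusted p = 0.0437), and Cd8b1, not tested, had 2, 7 and 12 in KO and 31, 5 and 17 in WT. Icos (-2.51, adjusted p = 0.00698) and Cd6 (-2.79, adjusted p = 0.0097) were the other 2, and Icos, over the filter in 0 KO libraries, was tested through its WT level. Without WT replicate 1 the log2 fold change was -1.50 for Cd4 and -2.0 for Cd6. Cd4 was not called without KO replicate 3 (adjusted p = 0.064) or KO replicate 4 (0.0526), and Cd8a kept its call when WT replicate 3 was left out but not when any other library was, with -0.95 (0.104) without WT replicate 1. Over all alternatives the adjusted p ran between 0.000645 and 0.064 for Cd4 and between 0.00661 and 0.136 for Cd8a. Cd2, an adhesion receptor also found on B-lineage cells, made up most of the list's level and did not pass, at 0.04.

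Of 12 proximal signalling genes 10 were tested, and 2 were higher and 6 lower, with a median of -1.87, against the same 23.9% higher and 28.5% lower over all tested genes. Lck, the kinase that starts T cell receptor signalling, had 286, 311 and 283 counts in KO and 745, 2391 and 769 in WT, a fold change of -2.53 (SE 0.37, adjusted p = 0.00207), and like Trgc2 it was highest in WT replicate 3. The adaptor Fyb (-2.60, adjusted p = 0.00377) and the adaptor Lcp2 (-1.65, adjusted p = 0.00562) were lower, and the adaptors Grap2 (2.53, adjusted p = 0.000482) and Lat (1.22, adjusted p = 0.0227) higher. Lat was not called without KO replicate 2 (adjusted p = 0.0629) or KO replicate 3 (0.0653), and over all alternatives its adjusted p ran between 0.000157 and 0.0653.

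Of 7 T-lineage transcription factors 5 were tested, and 2 were lower and 0 higher, with a median of -0.38. That count is near the share of all tested genes called lower, 28.5%, and is no result about the list. Gata3 had 1, 7 and 8 counts in KO and 72, 127 and 81 in WT (-4.59, SE 0.39, adjusted p = 0.000246) and was tested through its WT level, with 0 KO libraries over the filter, and Zbtb7b stood at -1.56 (adjusted p = 0.00246). Tcf7 at -0.38 and Lef1 at 0.36 (adjusted p = 0.0531) did not pass, nor did Runx3 at -0.02. Bcl11b, needed for T cell commitment, had 3, 8 and 2 counts in KO and 58, 5 and 10 in WT, again highest in WT replicate 1.

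Of 6 genes tied to gamma delta T cells 2 were tested and both were lower, where 28.5% of all tested genes were. Sox13, a factor of interleukin-17 producing gamma delta T cells, stood at 2.10, 2.77 and 2.61 CPM in KO and 35.1, 27.1 and 32.0 CPM in WT (-3.64, SE 0.16, adjusted p = 1.62e-05), with all 3 WT libraries alike. Maf stood at -2.32 (adjusted p = 0.00505). The defining cytokine Il17a was at 0 counts in all 6 libraries, and Il23r and Cd163l1 had at most 7 counts in any library. Sox13 differed little among the WT libraries where Trgc2 differed several times over.

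**Figure D5:**
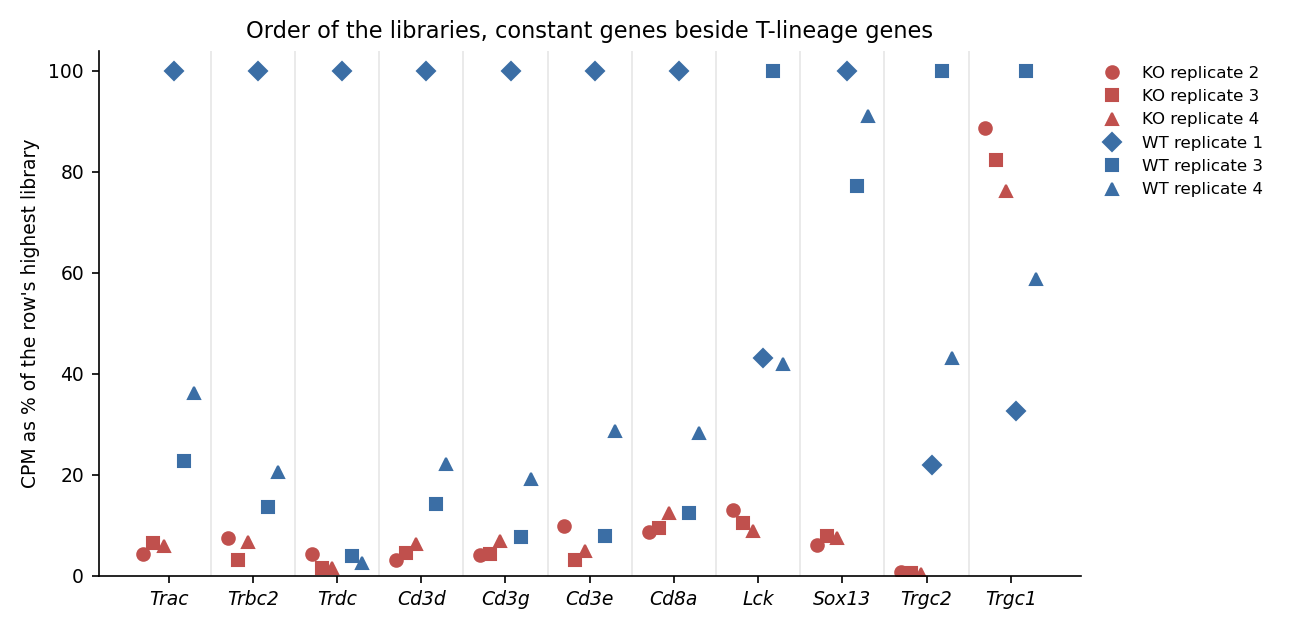
CPM of each gene in each library as a percentage of that gene's highest library (y axis), for T cell receptor constant genes and T-lineage genes, KO libraries left of WT libraries. WT replicate 1 is at 100% for Trac, Trbc2, Trdc, the CD3 chains, Cd8a and Sox13, and WT replicate 3 for Lck, Trgc2 and Trgc1.

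Summed markers of NK cells and of neutrophils were also lower in KO. The 13 NK cell markers summed to 6.69, 9.12 and 9.59 CPM in KO and 110, 52.7 and 64.4 CPM in WT, with 4 of 6 tested lower and 0 higher (median -2.19), where 28.5% of all tested genes were lower and 23.9% higher, and Tbx21 among the 4 was tested through its WT level alone. The list was led by Klrb1c at -4.67 (adjusted p = 3.22e-05), which made up most of the sum in WT. The 17 neutrophil markers were all lower, with sums of 1420, 3410 and 7250 CPM in KO and 42800, 17500 and 30700 CPM in WT (median -3.00). Both sums were highest in WT replicate 1, as were the alpha, beta and delta constants, and lowest of the WT libraries in replicate 3, where Trgc2, Trgc3 and Trgj2 were highest. Their part in the receptor results was not tested.

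Of 11 genes of the recombination machinery 4 were lower in KO and 7 did not pass, with a median of -0.07. The count is near the 28.5% of all tested genes called lower and is no result about the list. Dntt, which adds bases at the joints, stood at 0.86, 0.568 and 1.53 CPM in KO and 383, 151 and 212 CPM in WT (-7.94, SE 0.52, adjusted p = 8.33e-05). Rag1 at -1.10, Rag2 at -1.43 and Prkdc at -0.33 were also lower. These 3 were not called when KO replicate 2 or 3 was left out, where the largest adjusted p was 0.106, nor were Rag1 without WT replicate 1 (0.0761) and Rag1 and Rag2 without WT replicate 4 (0.0806 and 0.0644), nor Prkdc in the fit without a filter (0.0679). Over all alternatives the smallest adjusted p was 0.000232 for Rag1, 1.39e-05 for Rag2 and 0.00301 for Prkdc.

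In the authors' deposited table, which lists 18095 genes with DESeq2 results, 16 receptor rows were present, 14 of them with a negative log2 fold change, and 10 had an FDR below 0.05, all lower in KO, where 23.3% of all listed genes were lower and 19.4% higher by the same rule. The authors' deposited table gave Trgc2 a log2 fold change of -6.66 and Trgc1 one of 0.38 (FDR 0.549).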

How the data were processed

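Messenger RNA of 6 libraries was counted by the authors, and the deposited table lists each Ensembl gene of GRCm38 with unscaled counts, per the file headers and the submitters' processing notes. The aligner, the counter, its strand setting and its treatment of reads that match several genes were not given in the sources used here, and the authors' deposited comparison table gives log2 fold changes, the same as a linear ratio (not printed), p-values and FDRs from DESeq2, per the file headers. No column of the count table was left without a sample (0 unmapped). Receptor rows were taken by gene type, and locus and segment from the symbol.

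Counts were fitted with edgeR 4.0.16 in R 4.3.3 (filterByExpr set to at least 10 counts and to a total of at least 15, TMM, quasi-likelihood F test on genotype, Benjamini-Hochberg over all genes tested). Every adjusted p-value is from that fit where no other is named. limma 3.58.1 (voom) and DESeq2 1.42.0 were alternatives, with other normalisations and filters, immunoglobulin rows left out, the replicate number as a block, each library left out in turn and, chosen after seeing the data, gamma and beta constant rows summed. Intervals are exact 95% intervals from scipy 1.17.1, and figures were drawn with matplotlib 3.10.9. Intervals and the floor of 3 counts hold for counting error alone, as the labels name no molecular identifiers and several reads may come from 1 molecule. Expected numbers of rows at the smallest total are exact hypergeometric expectations. Library sizes, exon lengths and positions are those of the deposited table, and sequences were matched by Ensembl identifier to GENCODE M21 transcripts.

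The receptor rows and the gene lists were chosen with earlier results of these data known. Named by rule were the constant genes, other receptor rows that passed the filter, the V, D and J row with the most counts per locus, the leading V row of each library, members of the lists (CD3 chains, Cd247, Ptcra, coreceptors and up to 4 with the smallest p) and the nearest tested protein-coding gene on each side. The other gamma rows, Bcl11b, Cd2, Tcf7, Lef1, Runx3, Prkdc, Trdv5 and the gamma delta markers not tested were named after their values were seen. Single values of some listed markers are not reported here. On simulated counts of 14293 genes for this comparison the procedure recovered 76.3% of 97 genes changed 2-fold and 99.0% of 100 genes changed 4-fold, with 3.89% of calls false. The simulation gave every gene the same relative variation between libraries and left most genes unchanged. Receptor rows varied more, such as Trgc2 in WT at 209 ± 154 CPM (SD, n = 3), so these rates do not hold for them.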

Additional observations from a re-analysis of the deposited data

How the results depend on the processing

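Of the 8 tested receptor rows, Trgc2, Trgj2, Trgc3 and Trac were called lower in KO under every alternative that tested them, with log2 fold changes between -7.14 and -5.93 for Trgc2, -6.06 and -5.06 for Trgj2, -5.79 and -3.56 for Trgc3, and -3.56 and -2.22 for Trac. Of these, Trgc2 alone passed the expression filter in KO libraries. Trgj2, Trgc3 and Trac passed it in 0 KO libraries, so in filtered fits they were tested through their WT level and had to differ. Their repeated calls are a description. The number of receptor rows called lower was 6, and it was 10 of 105 without a filter, 3 of 5 with at least 1 CPM in 3 libraries, where fewer rows were tested, 4 of 8 in limma-voom, where Trbc1 and Trbc2 were lost, and 5 to 7 when 1 library was left out. Its members changed: without any 1 KO library Trbc1 and Trbc2 lost their calls while Trgc4 and Trgv2 entered the test and were called, and without WT replicate 4 these 2 also entered and Trbc1 was lost. Trgc4 and Trgv2 entered these fits through their WT level alone. The number called higher was 0, and 0 to 1 when 1 library was left out, the 1 being Trgc1 without WT replicate 3. With constant rows summed, 4 of 5 tested rows were called lower. Among the named genes and loci followed through the alternatives tried, no fold change reversed. Cd2 and Runx3, both near 0, were not followed. Over all genes, 3466 were higher and 4133 lower, and with upper-quartile factors the balance turned to 4011 higher and 3802 lower, with the median of all genes at 0.06 in place of 0.00.

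Replicate numbers 3 and 4 occur in both genotypes, and the deviations of same-numbered libraries correlated at 0.05 and 0.21 where the other pairs ran from -0.42 to 0.41. Deviations from the mean of 3 libraries sum to 0, so this cannot show whether same-numbered libraries share a mouse, transplant or batch. With the replicate block, 5 receptor rows were called lower in KO, with Trbc1 lost (-0.75, adjusted p = 0.167), and 2925 genes were higher and 3842 lower. Replicate numbers found in a single genotype add nothing to the genotype effect there, so that fit rests on replicates 3 and 4. Among single-gene values under the alternatives, 495 of genes that were called stayed called and 49 did not, and 67 of genes that were not called stayed so and 7 gained a call. Besides the receptor rows, calls were lost under some alternative for Dad1, Cd4, Cd8a, Cd3d, Lat, Rag1, Rag2, Prkdc, Nkg7 and Tbx21, and Lef1 and, without WT replicate 3, Trgc1 gained one. The cause was not tested. Rows with 1 to 3 counts limit what can be read from V and J segments, and a row at 0 counts may lie below the depth of a library. With 3 libraries a group, no sample could be checked as an outlier.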
